A study of Mus musculus with 2 samples.

Results

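The genes described here carry glucose into the cell, break it down to pyruvate and lactate, pass pyruvate into the mitochondrion, or divert glucose into the pentose phosphate pathway. They were chosen by symbol as 32 listed genes, of the 36227 Ensembl genes in the deposited table, and each symbol was matched to its Ensembl identifier. The list holds 3 glucose transporters, 9 genes of hexose phosphorylation and upper glycolysis, 6 of lower glycolysis with Bpgm, 2 lactate dehydrogenases, 4 genes of the pyruvate dehydrogenase complex, 4 pyruvate dehydrogenase kinases and 4 pentose phosphate genes. All 32 were found in the table, and 31 had a count entry.

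The study sequenced mRNA of mouse oocytes naturally ovulated and arrested at metaphase II, to ask how the mother's way of life relates to the oocyte transcriptome. All mothers were ICR females, an outbred strain, that had become obese by 12 weeks of age under standard laboratory conditions. The slimming mothers then lived in enriched-environment cages for 4 weeks, while the control mothers, labelled as fed a standard diet, stayed in normal cages, and oocytes were taken at 16 weeks. In each group 3 mice gave 3 oocytes each, and these 9 oocytes were lysed together and amplified as 1 library, so the spread between mice or oocytes cannot be seen.

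With 1 library per group there was no replicate check and no test, and the differences below are between 2 libraries, not between conditions. The total was 20947962 counts in the slimming and 20242289 counts in the control library. Ratios are given as log2 of slimming over control after TMM scaling, with an exact 95% counting interval. The protocol names no molecular identifiers, so intervals cover counting error only, and PCR copies are not independent molecules. All 10 oocyte markers on a list of their own were expressed (at least 10 CPM, which are counts scaled to the library total, in at least 1 library), and their sum was 99276 CPM in the slimming library against 101088 CPM in the control library. Gdf9, H1foo and Mos had the most counts of these, and Zp3 alone reached 2-fold, on the higher side (2450 and 1172 CPM).

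Glycolysis splits glucose into pyruvate, which lactate dehydrogenase interconverts with lactate and the pyruvate dehydrogenase complex turns into acetyl-CoA for the mitochondrial cycle. The pentose phosphate pathway takes glucose 6-phosphate instead and yields NADPH, used against oxidants and in synthesis, together with ribose for nucleotides. Mammalian oocytes are known to use glucose poorly and to live mainly on pyruvate, much of it made by the glycolysis of the surrounding cumulus cells.

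The counts on this pathway were very uneven between its steps. Of the 32 genes, 14 were expressed, 12 were under 10 CPM in both libraries but had at least 10 counts in 1 of them, 5 stayed under 10 counts, and Pdk4 had no count entry. Counts on the listed genes summed to 17612 CPM in the slimming library against 19038 CPM in the control library, and Bpgm alone took 81.7% and 85.4% of them. Ldhb took 74.2% and 68.2% of what remained, so the 30 other genes shared a small part of the counts.

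On the scale of CPM per kilobase of the principal transcript, the only scale on which genes are compared with each other here, the same 5 genes led both libraries in the same order. Bpgm stood at 6479 CPM per kb in the slimming library, against 7323 in control. Ldhb followed at 1837 and 1454 CPM per kb, and Taldo1 at 359 and 372. Pdk3 (48.6 and 45.4 CPM per kb) and G6pdx (31.4 and 36.8 CPM per kb) came next, and all other members lay under 20 CPM per kb. At the low end were Gapdh, at 0.101 and 0.139 CPM per kb, and Pgam1 and Aldoc, each listed at 0 counts in 1 library. In these counts the enzymes of the central glycolytic chain thus lay far below Bpgm, Ldhb and Taldo1 on this scale. Gapdh, Eno1, Pgk1 and Pgam1 share much of their sequence with other annotated transcripts, as described below. How reads matching several genes were assigned is not given in the sources used here. Its part in the low levels of these genes was not tested. Hk2, Pfkm and Pfkp also lay far below Bpgm, Ldhb and Taldo1, and Pfkm and Pfkp share exon bases with overlapping genes, as described below.

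**Figure D1:**
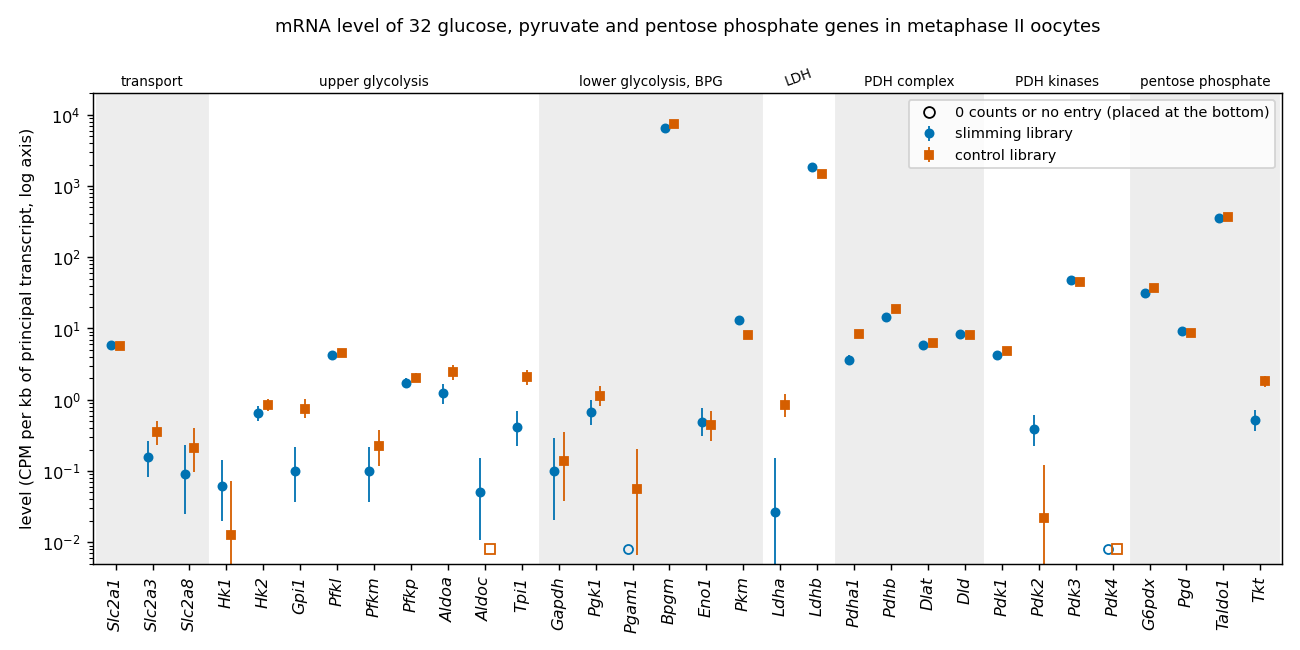
Level of each of the 32 genes in CPM per kilobase of its principal transcript (log axis) in the slimming (blue circles) and control (orange squares) library, ordered by role, with bars for the exact 95% counting interval and open symbols for 0 counts or no entry. Bpgm, Ldhb and Taldo1 stand above all other members in both libraries, and Gpi1, Tpi1, Ldha and Tkt show the widest gaps in which the slimming library is lower.

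The question of the comparison is how far these levels differed between the 2 libraries. Among the 14 expressed members, 0 reached 2-fold on the higher side and 1, Pdha1, on the lower side in the slimming library. Over all 5714 expressed genes those shares were 2.73% higher and 1.94% lower. At a limit of 1.5-fold, 1 member (Pkm) was higher and 1 (Pdha1) lower, beside 10.3% and 7.16% of all expressed genes, so the share of the 14 beyond 1.5-fold was near the background in both directions. Their median log2 ratio was -0.11, beside 0.02 for all expressed genes, and 4 lay above and 10 below the latter. The counting interval lay above 0 for 2 members and below 0 for 6, and it held 0 for the other 6.

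The 12 members of low level differed more. In the slimming library 1 of these, Pdk2, was higher by 2-fold or more, and 6 were lower by 2-fold or more (Slc2a3, Gpi1, Pfkm, Tpi1, Ldha and Tkt). Among all 7007 genes of the same low level, 18.8% were that much higher and 20.3% that much lower. The median log2 ratio of the 12 was -1.07, beside 0.00093 for all 7007 genes, and 2 of the 12 lay above that value and 10 below. Counting intervals lay below 0 for 7 of them and above 0 for 1, and held 0 for 4.

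Differences of this size were common at low level. Among genes whose higher level was 1 to 3 CPM, the central 95% of log2 ratios ran from -5.64 to 4.12, and between 3 and 10 CPM from -2.20 to 1.95. Between 10 and 30 CPM the range was -1.19 to 1.24. Of the 26 members with at least 10 counts, 24 lay inside the range of their level and 2 lay below it, Pdha1 and Tpi1. Pdha1 was at the very edge of its range, with a log2 ratio of -1.21.

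**Figure D2:**
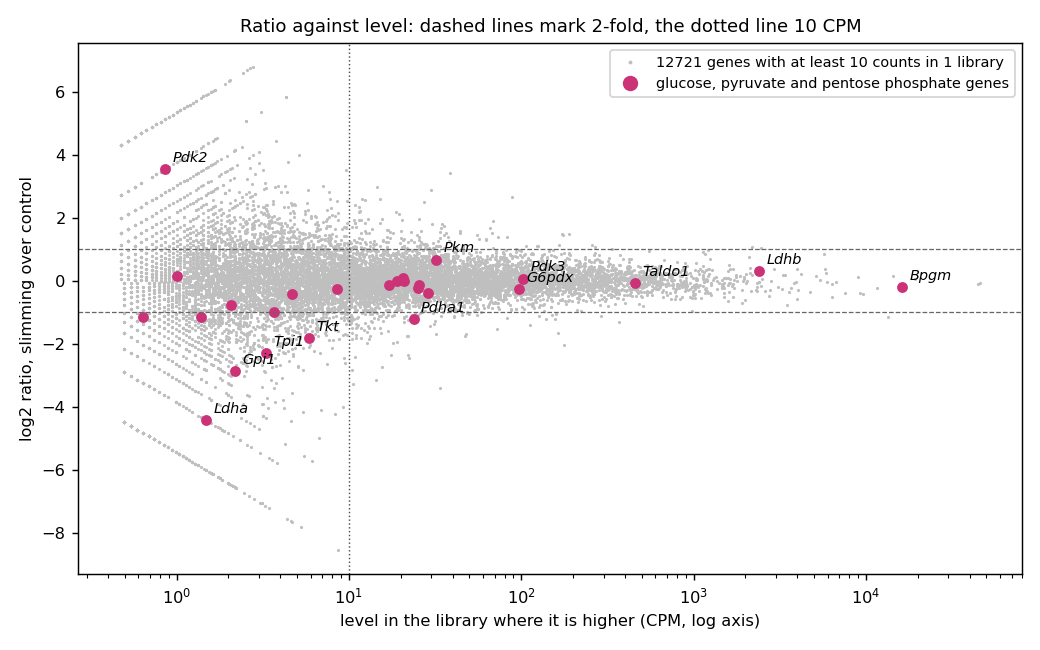
Log2 ratio of slimming over control (vertical axis) against the level in the library where a gene is higher (CPM, log axis) for the 12721 genes with at least 10 counts in 1 library (grey) and the 26 listed genes among them (magenta); dashed lines mark 2-fold and the dotted line 10 CPM. The scatter narrows to the right, and the low members Ldha, Gpi1, Tpi1 and Tkt lie on the lower side while Bpgm, Ldhb and Taldo1 lie between the dashed lines.

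**Figure D3:**
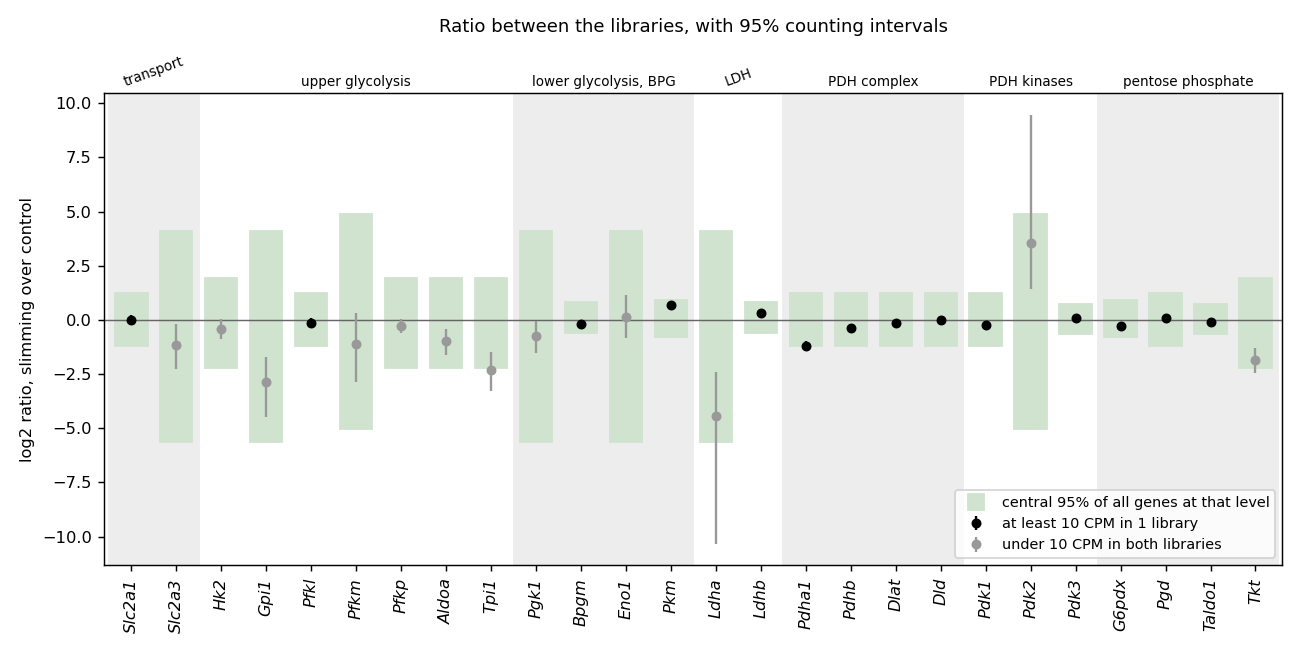
Log2 ratio of slimming over control for the 26 members with at least 10 counts in 1 library, with the exact 95% counting interval as a bar (black, at least 10 CPM in 1 library; grey, under 10 CPM in both) and, as green boxes, the central 95% of all genes at that level. Tpi1 and Pdha1 are the 2 points below their box.

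Glucose enters cells through the SLC2A transporters. Slc2a1, the widely expressed transporter GLUT1, had 400 counts (19.1 CPM) in the slimming library and 379 counts (18.7 CPM) in control, a log2 ratio of -0.0030 (interval -0.21 to 0.20) whose sign turned with scaling by total count. The 2 libraries were thus close to equal for the transporter that held 95.9% and 91.1% of the summed per-kilobase level of the 3. Slc2a3, the high-affinity transporter GLUT3, had 13 and 28 counts, a log2 ratio of -1.16 (-2.26 to -0.19). Slc2a8, an intracellular transporter, had 4 and 9 counts, too few to compare.

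Hexokinases trap glucose as glucose 6-phosphate. Hk2, the insulin-responsive form of muscle and fat, had 75 counts (3.58 CPM) in the slimming library and 95 counts (4.69 CPM) in control, at a log2 ratio of -0.42 (-0.88 to 0.03), so that the interval held 0. Hk1 had 5 counts and 1 count, for a log2 ratio of 1.79 (-0.92 to 7.80). Hk2 therefore held 91.3% of the hexokinase level per kilobase in the slimming library, against 98.5% in control.

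Gpi1, which isomerises glucose 6-phosphate to fructose 6-phosphate, had 6 counts (0.286 CPM) in the slimming library and 44 counts (2.17 CPM) in the control library. It was 7.24-fold lower in the slimming library (log2 -2.86, -4.48 to -1.72), still inside the central range of genes at its level. Its exons share 741 bases with Gm26762, a non-coding gene on the opposite strand. Gm1840, a processed pseudogene that matches 50.2% of the Gpi1 principal transcript, had 10 counts in the slimming and 3 counts in the control library. The part of this copy in the Gpi1 values was not tested.

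Phosphofructokinase commits the sugar to glycolysis, and its 3 subunits were unequal. The liver-type subunit Pfkl had 333 counts (15.9 CPM) and 344 counts (17.0 CPM), and the platelet-type subunit Pfkp had 151 counts (7.21 CPM) and 172 counts (8.50 CPM), slimming first. Pfkl had a log2 ratio of -0.13 and Pfkp one of -0.27. The muscle-type subunit Pfkm had 6 and 13 counts, with an interval from -2.88 to 0.30. Pfkl held 69.9% and 66.7% of the summed per-kilobase level and Pfkp 28.5% and 30.02%, so the order of the subunits was the same in both libraries. Pfkp shares 748 exon bases with Pitrm1 on the opposite strand, which had 60 and 15 counts. Pfkm shares 341 exon bases with Gm26513 on the same strand and 18 with Senp1 on the opposite strand. The part of these shared bases in the values was not tested.

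Aldolase cuts the 6-carbon sugar, and triosephosphate isomerase interconverts the products. Aldoa had 39 counts (1.86 CPM) in the slimming library and 74 counts (3.66 CPM) in control, 1.99-fold lower and so just short of the 2-fold limit (log2 -0.996, -1.60 to -0.43). Aldoc had 3 counts and 0 counts, at or under the floor of 3 counts that a count of 0 allows, and no fold is given. Tpi1 had 14 counts (0.668 CPM) in the slimming library and 67 counts (3.31 CPM) in the control library. This was 4.92-fold lower (log2 -2.30, -3.29 to -1.49) and below the central 95% of genes between 3 and 10 CPM.

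Of the other genes of lower glycolysis, Gapdh and Pgam1 were near the floor of 3 counts, and Pgk1 and Eno1 were of low level. Gapdh, which oxidises glyceraldehyde 3-phosphate and is often used as a reference gene, had 3 counts in the slimming and 4 counts in the control library. Pgam1, the phosphoglycerate mutase, had 0 and 2 counts, both under the floor. Pgk1, the first ATP-yielding enzyme of the chain, had 26 and 42 counts (log2 -0.76, -1.54 to -0.03), and enolase 1 (Eno1) had 21 and 18 counts (log2 0.14). Those 4 genes share much of their sequence with copies in the genome, described below.

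Bpgm (ENSMUSG00000038871, chr6:34476207-34505613, plus strand, in GRCm38) had the highest level per kilobase of all members and took the fourth most counts of all genes in both libraries. The enzyme makes 2,3-bisphosphoglycerate, the compound that loosens the grip of haemoglobin on oxygen in red blood cells. Bpgm had 301285 counts (14383 CPM) in the slimming library and 329092 counts (16258 CPM) in the control library. It was 1.16-fold lower in slimming oocytes, at a log2 ratio of -0.21 with a narrow interval of -0.22 to -0.20, and inside the central range of genes above 1000 CPM.

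Red blood cell markers were nearly absent beside that level. Of 7 such markers 2 had a count entry, none of them a globin, and they summed to 1.24 CPM in the slimming library against 0.840 CPM in the control library. Epb42, an erythrocyte membrane protein, gave 26 and 16 of those counts, and Slc4a1, the anion exchanger, gave 0 and 1. No 50-base window of the Bpgm transcript was found in another annotated transcript. The markers themselves were not searched for copies, and how reads with several matches were assigned is not given in the sources used here.

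Pyruvate kinase closes glycolysis. Pkm (ENSMUSG00000032294, chr9:59656368-59679375, plus strand, in GRCm38) had 671 counts (32.03 CPM) in the slimming library and 399 counts (19.7 CPM) in the control library. It was 1.59-fold higher in the slimming library (log2 0.67, 0.49 to 0.85), the only expressed member past 1.5-fold in that direction. The value lay inside the central 95% of genes between 30 and 100 CPM, -0.80 to 0.94. Of its 50-base windows 30.5% are also found in other annotated transcripts, among them the processed pseudogene Gm6560, and its exons share 767 bases with Gm49759, an unclassified gene model on the same strand.

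Lactate dehydrogenase was almost entirely of the B type. Ldhb, the subunit of heart muscle, had 50171 counts (2395 CPM) in the slimming library and 38371 counts (1896 CPM) in the control library, and was 1.24-fold higher in the slimming library (log2 0.31, 0.29 to 0.33). Ldha, the subunit of skeletal muscle and of strongly glycolytic cells, had 1 count in the slimming and 30 counts in control, a log2 ratio of -4.43 with an interval from -10.3 to -2.40. Ldhb held 99.999% of the per-kilobase level of the pair in the slimming library, against 99.942% in control. Ldha also has 2 near-identical processed pseudogenes, described below.

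**Figure D4:**
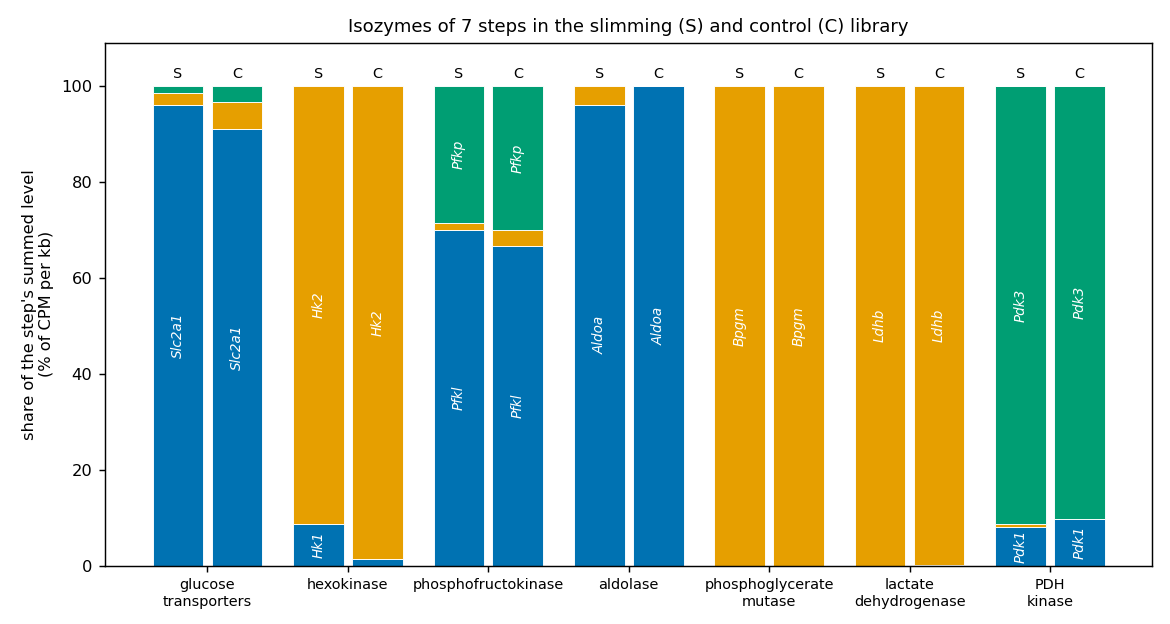
Share of each step's summed level (% of CPM per kb) held by each listed gene at 7 steps in the slimming (S) and control (C) library; Bpgm is drawn beside Pgam1. Among the listed genes of a step, 1 holds more than 90% at every step but phosphofructokinase, where Pfkl holds 69.9% and 66.7%. Transporters outside the 32 genes are not counted, such as Slc2a10 at 2.29 and 2.73 CPM per kb (slimming first), above Slc2a3. In the bars labelled phosphoglycerate mutase, Pgam1 had 0 and 2 counts, under the floor of 3 counts, so no share of that glycolytic step is read from them.

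The Ldhb value depends on a copy of the gene elsewhere in the genome. Gm5514 (ENSMUSG00000045104) is annotated as a processed pseudogene at chr19:21937380-21938381 (GRCm38, plus strand), and it has a row of its own in the deposited table. Over 1002 bases it differs from the Ldhb coding sequence (1005 bases, chromosome 6, minus strand) at 20 positions, an identity of 98.0%. Of 953 windows of 50 bases, 339 (35.6%) are identical between both, and the longest identical run is 148 bases. Read in the frame of Ldhb, those bases of Gm5514 hold 0 stop codons.

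These stretches, from the GENCODE vM21 transcripts, show positions at which the genes differ and a stretch in which they do not. A short read can tell the genes apart only where it covers a differing base. The 50-base window that starts at coding position 298 lies between differing bases but holds 0 differences. A read of just that window fits both genes equally. The first pair covers coding positions 282 to 381, counted from the A of the Ldhb start codon, with the 5 differing bases in capitals. Ldhb lies there at chr6:142498545-142498644 (minus strand) and Gm5514 at chr19:21937661-21937760 (plus strand); the first lies within a coding exon and the other within the single exon of the pseudogene.
Ldhb: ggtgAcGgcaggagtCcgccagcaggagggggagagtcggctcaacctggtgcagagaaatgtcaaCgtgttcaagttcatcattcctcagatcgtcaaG
Gm5514: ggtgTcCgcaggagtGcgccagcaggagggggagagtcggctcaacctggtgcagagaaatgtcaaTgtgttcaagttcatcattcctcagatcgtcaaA
The next stretch covers coding positions 183 to 282 and holds 0 differences, so a read from it fits both genes equally. It spans chr6:142498644-142501404 in Ldhb, where an intron interrupts it, and chr19:21937562-21937661 in Gm5514, which lacks the intron. How reads across that junction were aligned is not given in the sources used here.
Ldhb and Gm5514: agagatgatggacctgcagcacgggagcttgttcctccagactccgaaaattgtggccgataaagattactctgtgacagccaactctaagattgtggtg

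Counts on the copy were high and unequal. Gm5514 had 45694 counts (2181 CPM) in the slimming library and 20379 counts (1007 CPM) in control, 2.12-fold higher in the slimming library (log2 1.08, 1.06 to 1.11). It held 47.7% (exact interval 47.3 to 48.0) of the counts of the pair in the slimming library and 34.7% (34.3 to 35.1) in the control library. Summed, the pair had 95865 counts (4576 CPM) and 58750 counts (2902 CPM), 1.54-fold higher in the slimming library (log2 0.63, 0.61 to 0.64). The direction was the same for Ldhb, for its copy and for their sum, while the size of the difference ran from 1.24-fold to 2.12-fold. How the authors assigned reads with several matches is not given in the sources used here, so the counts of Ldhb and Gm5514 are uncertain one by one.

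**Figure D5:**
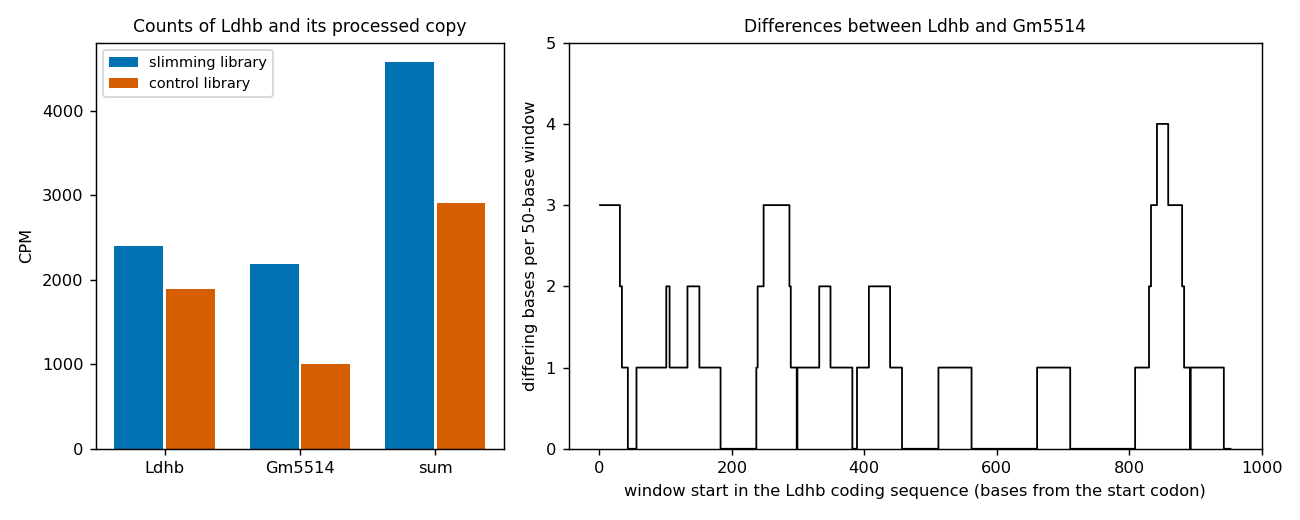
Left, CPM of Ldhb, its processed copy Gm5514 and their sum in the slimming (blue) and control (orange) library, 1 library each; right, the number of differing bases (at most 4) in each 50-base window along the Ldhb coding sequence. The slimming bar is higher in all 3 pairs, and the windows at 0 on the right are those in which both genes read the same.

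Other members also have copies in the genome. At least 20% of the 50-base windows of the principal transcript were found in another annotated transcript for 7 members: Gapdh (82.5%), Eno1 (72.2%), Pgk1 (68.0%), Pgam1 (41.5%), Pkm (30.5%), Pdhb (30.3%) and Ldhb (27.0%). Of these 7, 3 were expressed, against 11 of the other 25, and for 16 members no window was copied. Genes that overlap a member were left out of this search. Gpi1 (19.6%) and Ldha (17.1%) fell under the limit but also have near-identical copies. Gm1840 matches 50.2% of the Gpi1 transcript. Gm5452 and Gm9247, neither of them in the deposited table, match 56.3% and 56.6% of that of Ldha. Gapdh had 78 near-identical copies, of which 38 are in the deposited table; these held 41 counts in the slimming and 61 counts in the control library. Apart from the counts of Gm5514, Gm1840 and the Gapdh copies given above, the other copies were not analysed here. The part of copies in the levels of these members was not tested.

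Pyruvate dehydrogenase turns pyruvate into acetyl-CoA, and all 4 of its listed subunit genes were expressed. Each lay below the median of all expressed genes, by very different amounts, and together they had 77.2 CPM in the slimming library against 98.5 CPM in control. Pdha1 (ENSMUSG00000031299, chrX:160122209-160138413, minus strand, in GRCm38), the X-linked catalytic alpha subunit, had 219 counts (10.5 CPM) in the slimming library and 480 counts (23.7 CPM) in the control library. It was 2.32-fold lower in the slimming library (log2 -1.21, -1.45 to -0.98).

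The partner subunits differed less. Pdhb, the beta subunit, had 465 counts (22.2 CPM) in the slimming library and 579 counts (28.6 CPM) in control, 1.32-fold lower (log2 -0.40, -0.58 to -0.22). Dlat, the acetyltransferase core, had 493 and 516 counts at a log2 ratio of -0.15. Dld, the dehydrogenase shared with other complexes, had 440 and 418 counts at a log2 ratio of -0.0068, whose sign turned with scaling by total count. In the control library Pdha1 and Dld stood side by side at 8.33 and 8.12 CPM per kb, and in the slimming library they stood at 3.67 and 8.26.

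Pdha1 overlaps another gene, which touches the 1 expressed member that was more than 2-fold apart. Its exons share 603 of 3734 bases with Map3k15, a kinase gene on the opposite strand, and use of strand is not given in the sources used here, so reads of the 2 genes cannot be told apart in that stretch. Map3k15 had 149 counts in the slimming and 162 counts in control, a log2 ratio of -0.20 (-0.53 to 0.13). The part of these shared bases in the Pdha1 values was not tested.

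The pyruvate dehydrogenase kinases switch the complex off by phosphorylating its alpha subunit. Pdk3 led with 2151 counts (103 CPM) in the slimming library and 1943 counts (96.0 CPM) in control, a log2 ratio of 0.07 (-0.02 to 0.16) that fell to -0.0038 with the trend of transcript length removed. It held 91.3% and 90.3% of the summed per-kilobase level of the kinases. Pdk1, which hypoxia induces in many cells, had 462 counts (22.1 CPM) and 510 counts (25.2 CPM) at a log2 ratio of -0.22 (-0.41 to -0.04). Pdk2 had 18 counts in the slimming and 1 count in control, a log2 ratio of 3.54 with an interval from 1.43 to 9.47. Pdk4, the fasting-induced kinase, had no count entry. The 3 counted kinases thus did not share 1 direction.

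Pentose phosphate genes spread over a wide range of levels, with transketolase at the low end. G6pdx (ENSMUSG00000031400, chrX:74409483-74429194, minus strand, in GRCm38), whose enzyme makes the first NADPH of the pathway, had 1743 counts (83.2 CPM) in the slimming library and 1976 counts (97.6 CPM) in the control library. It was 1.20-fold lower (log2 -0.26, -0.36 to -0.17). Pgd, which makes the next NADPH, had 431 and 386 counts at a log2 ratio of 0.08. Taldo1, the transaldolase that links the pathway back to glycolysis, had 9243 counts (441 CPM) and 9255 counts (457 CPM) at a log2 ratio of -0.08 (-0.12 to -0.04). These 3 genes were less than 1.5-fold apart.

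Tkt, the transketolase that works beside Taldo1, stood apart from them in level and ratio. It had 35 counts (1.67 CPM) in the slimming library and 119 counts (5.88 CPM) in control, 3.56-fold lower (log2 -1.83, -2.43 to -1.29). Per kilobase it lay at 0.518 and 1.82 CPM, against 359 and 372 for Taldo1. The ratio of Tkt was inside the central 95% of genes between 3 and 10 CPM.

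Several markers of other cell types were lower in the slimming library, and others were near equal or higher. Markers of cumulus and granulosa cells, which surround the oocyte, summed to 534 CPM in the slimming library against 535 CPM in the control library, mostly from Serpine2 (491 and 475 CPM), Cyp19a1 (34.5 and 39.2 CPM) and Nr5a2 (6.49 and 10.1 CPM). Without Serpine2 and Cyp19a1 the sum was 8.69 CPM in the slimming library against 20.7 CPM in the control library. Of 18 markers, 11 were at 0 in the slimming, 7 in the control and 7 in both libraries, and 9 had at least 10 counts in 1 library. Of those 9, 5 were lower in the slimming library by 2-fold or more and 0 were higher by as much, where 20.3% and 18.8% of all genes of low level and 1.94% and 2.73% of expressed genes were. Kitl, named after its values were seen, had 39 and 25 counts, a log2 ratio of 0.55 (-0.20 to 1.35).

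Several defining markers of these cells were at 0 in the slimming library. Inha, the inhibin alpha subunit, had 0 and 63 counts, at least 22.2-fold lower against a floor of 3 counts per library. Cyp11a1, the first enzyme of steroid synthesis, had 0 and 17 counts (at least 5.99-fold lower), and Inhba, an inhibin and activin subunit, had 0 and 12 counts (at least 4.23-fold lower). The source of these counts was not tested. If it was attached cells, fewer cells and less RNA per cell cannot be told apart in pooled oocytes.

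Immune cell markers, 11 in all, summed to 25.8 CPM in the slimming library against 42.7 CPM in the control library, with 7 at 0 in the slimming and 2 at 0 in the control library. H2-Aa (17.9 and 27.2 CPM), Cd68 (3.77 and 5.09 CPM) and Laptm5 (4.11 and 3.71 CPM) had the most counts. Fcer1g had 0 and 62 counts and Tyrobp 0 and 57, at least 21.9-fold and 20.1-fold lower. Sperm and spermatid markers summed to 560 and 648 CPM, mostly from Odf2 (538 and 624 CPM). Prm2 (19.8 and 22.2 CPM) and Oaz3 (1.72 and 1.48 CPM) came next, and Odf1 had 14 and 0 counts (at least 4.41-fold higher). Of these 8 markers 4 had a count entry, and Prm1, Tnp1, Tnp2 and Akap4 had none. The part of cumulus, granulosa and immune cell RNA in the lower values of Slc2a3, Gpi1, Aldoa, Tpi1, Ldha and Tkt was not tested.

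A list of 66 further genes of glucose and pyruvate handling was read beside the 32. Of these 51 had a count entry and 16 were expressed. Of the 16, 0 were 2-fold apart, 0 were higher by 1.5-fold or more, and 1, Slc16a1, was lower by 1.5-fold or more. Their median log2 ratio was -0.07, with 7 above and 9 below the median of all expressed genes. Both shares were under the 10.3% and 7.16% of all expressed genes.

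Transport of pyruvate and lactate across the cell membrane depends on the monocarboxylate transporters and their chaperone basigin. Slc16a1, the transporter MCT1, had 203 counts (9.69 CPM) in the slimming library and 310 counts (15.3 CPM) in the control library (log2 -0.69, -0.95 to -0.43). Bsg, which encodes basigin, had 970 counts (46.3 CPM) and 667 counts (33.0 CPM), a log2 ratio of 0.46 (0.32 to 0.60). The transporter was lower and its chaperone higher in the slimming library. The carriers as a list summed to 63.2 and 57.4 CPM.

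In the lists of glucose entry and of regulators of glycolysis, 0 of the expressed genes were 1.5-fold apart. Adpgk, an ADP-dependent glucokinase and the gene with the most counts of its list, had 40.6 CPM in the slimming library against 47.9 CPM in the control library. Pfkfb1, which sets the level of the phosphofructokinase activator fructose 2,6-bisphosphate, had 532 and 345 counts (log2 0.54, 0.35 to 0.74). It was higher in the slimming library by less than 1.5-fold. Hif1a, the hypoxia-inducible factor that activates glycolytic genes in many cells, had 210 CPM and 258 CPM, a log2 ratio of -0.33.

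The genes with the most counts in the pentose phosphate, component X, gluconeogenesis and transporter lists were also less than 1.5-fold apart. Rpia, which makes ribose 5-phosphate, had 289 CPM in the slimming library against 225 CPM in the control library (log2 0.33). Pdhx, which anchors Dld to the pyruvate dehydrogenase core, had 128 and 116 CPM (log2 0.11), unlike Pdha1. Fbp1, a gluconeogenic phosphatase, had 11.7 and 14.5 CPM (log2 -0.34), and Slc2a10, a glucose transporter under 10 CPM in both libraries, had 8.12 and 9.68 CPM (log2 -0.29).

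Of these 66 genes, 26 were of low level, of which 5 were higher and 5 lower by 2-fold or more, near the 18.8% and 20.3% of all genes of low level. Most of these are named after their values were seen. The higher ones were Pgls, the lactonase between G6pdx and Pgd, with 68 and 7 counts, G6pc3 with 98 and 17 counts, Pgm1 with 19 and 2 counts, Slc16a7 with 25 and 6 counts, and Galt with 65 and 29 counts. The lower ones were Tktl1, a transketolase-like gene that had the most counts among isozymes of other tissues, with 6 and 45 counts, Pgp with 7 and 41 counts, Pfkfb3 with 13 and 33 counts, Slc2a13 with 0 and 13 counts and Slc16a3 with 0 and 11 counts.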

How the data were processed

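The authors deposited raw read counts per Ensembl gene, slimming then control per the file headers, and the submitters' processing notes list mm9 as the genome build. The aligner, the counter, the handling of multiply matching reads and the strand setting were not given in the sources used here. Counts were given for 18017 genes; missing entries were read as no count. Per the labels' protocols, cDNA was primed with an oligo(dT) of 24 bases, amplified for 18 and 14 PCR cycles and sequenced on a SOLiD instrument. The deposited log2 ratio scaled by the authors equals total-count scaling with 0 replaced by 0.5 (largest gap 8e-15). A deposited score, which the authors made as a z-score of the difference between the libraries per the file headers, was not used. The authors' deposited p-value and q-values compare the reads of 2 libraries and were not used either.

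Symbols, overlaps, transcript lengths, copies and coordinates came from GENCODE vM21 (GRCm38), a later build than mm9, so coordinates are of that annotation and not of the authors' files. TMM factors (1.01 slimming, 0.989 control) came from edgeR 4.0.16 in R 4.3.3, and log2 ratios used counts plus 0.5. Intervals are exact Clopper-Pearson 95% intervals of the slimming share of both libraries' counts. A count of 0 allows up to 3 counts (0.143 and 0.148 CPM). CPM used total counts; levels per kilobase used APPRIS principal transcripts. A near-identical copy was an annotated transcript matching at 95% identity or more over at least 50 bases and 20% of the principal transcript. Alternatives were total-count and DESeq2 1.42.0 scaling, a pseudocount of 1, other limits on CPM, removal of a length trend in 20 bins, and leaving out overlapping or copied genes. The computations were tested on simulated data. Python 3.11.15, numpy 2.4.6, scipy 1.17.1, pandas 2.3.3 and matplotlib 3.10.9 were used.

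The members and lists were chosen with earlier results of these data known. All members are given. Of the other pathway genes the most abundant of each list and the 4 expressed genes with the largest absolute log2 ratio whose interval left out a ratio of 1 were named, and of each marker list the 3 most abundant and those with 0 counts in 1 library and at least 10 in the other; any other gene was named after its values were seen, and 1 gene falling under these rules is left out of the text.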

Additional observations from a re-analysis of the deposited data

How the results depend on the processing

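Direction held for the log2 ratios of the 26 members with at least 10 counts in 105 recomputed values (0 reversed, 98 within the counting interval, 7 outside it), apart from signs at 0: Dld ran from -0.06 to 0.02, Pdk3 from -0.0038 to 0.10 and Slc2a1 from -0.0031 to 0.03. The 7 were Bpgm by total count (-0.18), DESeq2 size factors (-0.19) and with the length trend removed (-0.28), Ldhb by total count (0.34), with the length trend removed (0.08) and summed with Gm5514 (0.63), and Taldo1 with the length trend removed (-0.16). Across genes the median log2 ratio was 0.28 in the shortest of 20 length bins and -0.10 in the longest.

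Counts of members depended on the level required. At 1 CPM, 6 members were at least 2-fold lower, and 8 were at least 1.5-fold lower. With no filter, 3 were at least 2-fold higher and 9 lower, and 4 were at least 1.5-fold higher and 11 lower. At 30 CPM, or with members that share exon bases left out, 0 were 2-fold lower and 0 were 1.5-fold lower; without those that overlap, 0 were 1.5-fold higher. Fewer genes are tested there, since Pdha1 peaks under 30 CPM and both Pdha1 and Pkm overlap other genes. Under settings chosen after seeing the data, 0 were 1.5-fold higher with copied members left out, and the low members alone gave 1 at least 2-fold higher, 6 at least 2-fold lower, 8 at least 1.5-fold lower and a median of -1.07. For the other pathway genes, 6 were at least 1.5-fold higher and 7 lower at 1 CPM, 11 and 15 with no filter, and 0 lower at 30 CPM. The median of the expressed members was -0.11, and -0.0083 to -0.26 under the other settings except that of low members.

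No paired analysis was possible because each group is 1 library. Copies elsewhere in the genome were not searched beyond annotated transcripts, so that alternative was not run. Members under 10 counts could not be compared at this depth.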
